A study of Homo sapiens with 6 samples.

Results

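The immediate-early genes FOS, JUN, JUNB, JUND, EGR1, ATF3, KLF6, IER2, ZFP36 and DUSP1 were followed in A549 lung adenocarcinoma cells given a CRISPR guide against UXS1 and in control cells. They are 10 of the 28317 genes in the tables, were taken by gene name, and were all found as 1 row each. The set did not move as a block. FOS and ZFP36 transcripts were higher in UXS1 KO cells, JUN, KLF6 and DUSP1 transcripts were lower, and JUNB, JUND, IER2, ATF3 and EGR1 did not pass the test. The label under which the genes are grouped, immediate-early transcription factors, fits most of them by their known roles, but ZFP36 is an RNA-binding protein and DUSP1 a phosphatase.

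Immediate-early genes are switched on within minutes of a growth factor, stress or cytokine signal, without the need for protein synthesis, and their transcripts are usually short-lived. MAP kinases act on SRF with its ternary complex partners and on CREB-type factors at their promoters, and FOS and JUN proteins then pair as AP-1 through their leucine zippers to drive later genes. Other early products close the loop: DUSP1 takes phosphate off MAP kinases, and ZFP36 binds AU-rich elements in messenger RNA and speeds its decay. The cultures were kept in serum, and no label names an acute stimulus.

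A549 is an established human lung adenocarcinoma line. The UXS1 KO group received lentiCRISPR v2 virus carrying 1 guide against UXS1 (UXS1 g1), and the CTRL group the same vector with a guide that targets no gene; both groups went through puromycin selection for 5 days and were harvested 7 days after infection in DMEM with fetal bovine serum. UXS1 makes UDP-xylose from UDP-glucuronic acid. Each group had 3 libraries, called biological triplicates by the submitters; the labels do not state if each had its own infection, and p-values cover only the spread among these cultures. Library totals were 21121489 to 22160405 counts. UXS1 itself had 17.1 ± 0.192 TPM in UXS1 KO and 31.7 ± 0.737 TPM in CTRL (mean ± SD, n = 3 each; TPM is a level scaled to the library and to gene length), so transcript of the targeted gene remained at 54.1% of CTRL (edgeR adjusted p = 2.2e-14).

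All 8 markers of the line, 6 epithelial genes and the aldo-keto reductases AKR1B10 and AKR1C1, were detected. Where 24.5% of all genes tested were called higher and 23.7% lower, 5 of these 8 markers were higher, 1 lower and 2 not called. Their summed level was 22076 to 22911 TPM in UXS1 KO and 21229 to 23099 TPM in CTRL, of which AKR1B10 alone averaged 11696 TPM in UXS1 KO and 10796 TPM in CTRL. KRT7 had a log2 fold change of -0.69, CDH1 of 0.86, KRT19 of 0.55 and AKR1C1 of 0.47, while KRT8 and KRT18 were not called. Leukocyte markers summed to 57.4 to 60.6 TPM in UXS1 KO against 22.3 to 26.7 TPM in CTRL, most of it CD14 (47.7 TPM in UXS1 KO and 19.4 TPM in CTRL), with CD3E at 0 in all 6 libraries. Of the 6 tested leukocyte markers 5 were called higher and 1 lower; after CD14 (log2 fold change 1.30) the smallest adjusted p belonged to CD79A (1.89), LYZ (3.04) and LCP1 (1.30), each under 7 TPM. Fibroblast markers summed to 12.97 to 15.13 TPM in UXS1 KO and 10.1 to 12.1 TPM in CTRL, with COL1A2 at 0 in all 6 libraries; of 5 tested, 4 were called higher (THY1 at a log2 fold change of 0.53, COL3A1 at 1.04, LUM at 0.99 and PDGFRA at 0.99) and none lower. The 6 endothelial markers summed to 81.8 to 84.0 TPM in UXS1 KO and 69.2 to 71.6 TPM in CTRL, nearly all of it EGFL7, which was called higher; CDH5, the other one tested, was not called, and the other 4 averaged under 0.2 TPM in either group. The part of these genes in the results below was not tested, and in bulk RNA fewer cells with a transcript and less transcript per cell cannot be told apart.

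All 10 genes passed the filter on low counts. With the threshold set at an adjusted p of 0.05 in edgeR's two-sided quasi-likelihood test, 2 of the 10 were higher, where 24.5% of the 15757 genes tested were higher, and 3 were lower, where 23.7% were lower. The share called in either direction, 5 of 10 genes, was close to the 48.2% over all genes. The median log2 fold change of the 10 genes was 0.050, against -0.0030 over all genes. The 5 called genes were also those whose 3 UXS1 KO values and 3 CTRL values did not overlap in CPM (counts scaled to library size), a property of 54.5% of all genes tested. An exact two-sided permutation test of CPM gave each of them p = 0.1, which is the smallest value that 3 against 3 libraries allow.

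**Figure D1:**
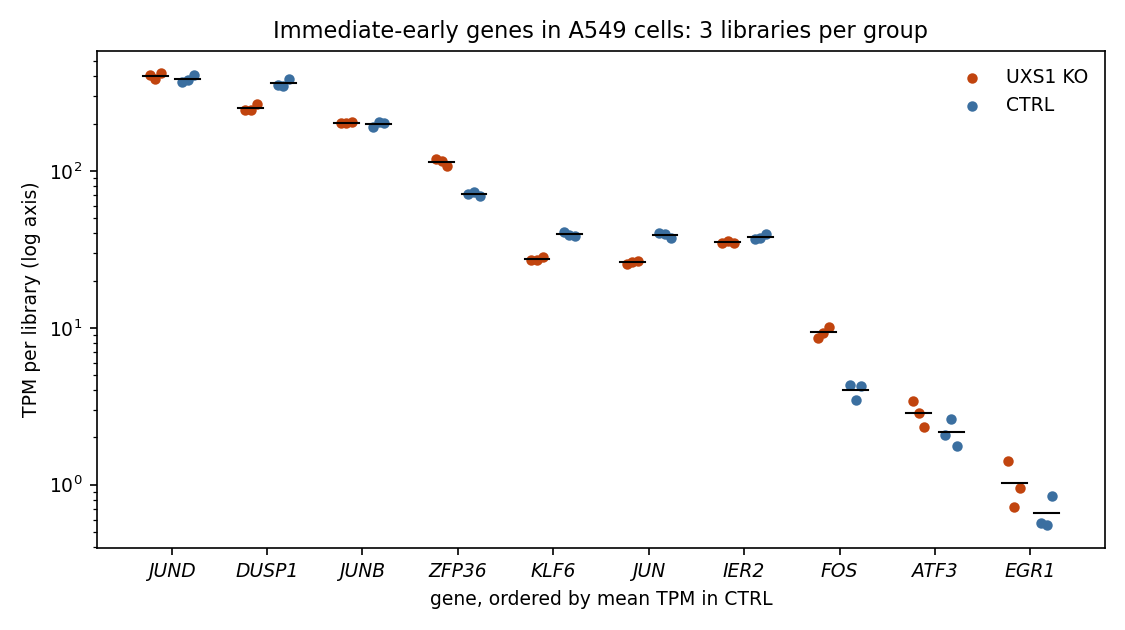
Level of each immediate-early gene in TPM on a log axis, with 1 point per library (3 UXS1 KO left of 3 CTRL for each gene) and a line at each group mean. FOS and ZFP36 points lie higher in UXS1 KO, JUN, KLF6 and DUSP1 points lie lower, and the levels run from about 1 TPM for EGR1 to 405 TPM for JUND in UXS1 KO.

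The levels spanned more than 2 orders of magnitude. In UXS1 KO the order by mean TPM was JUND (405), DUSP1 (250.4), JUNB (203), ZFP36 (114), IER2 (35.1), KLF6 (27.4), JUN (26.2), FOS (9.34), ATF3 (2.87) and EGR1 (1.03), and no neighbours in that order had overlapping ranges. In CTRL it was JUND (387), DUSP1 (361), JUNB (199), ZFP36 (71.6), KLF6 (39.4), JUN (39.0), IER2 (37.9), FOS (4.0), ATF3 (2.15) and EGR1 (0.656). There the ranges of JUND and DUSP1 overlapped, and so did those of KLF6 and JUN and those of JUN and IER2, so these neighbours cannot be ranked in CTRL. In UXS1 KO, by contrast, DUSP1 stood clear below JUND, and KLF6 and JUN clear below IER2.

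FOS, which cannot pair with itself and works as the partner of JUN proteins, gave the largest change of the set. It had 8.66, 9.24 and 10.1 TPM in the UXS1 KO libraries and 4.32, 3.46 and 4.23 TPM in the CTRL libraries. The lowest UXS1 KO library was about 2 times the highest CTRL library. Its counts were 168, 182 and 204 in UXS1 KO and 85, 70 and 81 in CTRL, which the fit put at 2.34-fold, or 1.23 on the log2 scale (SE 0.118, edgeR adjusted p = 2.2e-09). Of all genes tested 2.72% had a larger absolute log2 fold change, and 398 genes were called with a larger rise. FOS (ENSG00000170345.10) lies on GRCh38 chromosome 14, 75278774 to 75282230, plus strand, and its exons overlap no other gene in GENCODE 29.

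JUN, the AP-1 subunit that can pair with itself and with FOS, went the other way. Its levels were 25.6, 26.4 and 26.5 TPM in the UXS1 KO libraries, against 40.3, 39.6 and 37.2 TPM in the CTRL libraries. All UXS1 KO libraries lay below all CTRL libraries. On the log2 scale JUN changed by -0.58 (SE 0.056, edgeR adjusted p = 2.7e-09), which is 67.1% of CTRL. JUN (ENSG00000177606.7) is an intronless gene on chromosome 1, 58780788 to 58784327, minus strand.

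JUNB and JUND, the JUN relatives that make up most JUN-type transcript here, stayed close to CTRL. JUNB had 202, 202 and 204 TPM in UXS1 KO and 190, 204 and 203 TPM in CTRL, a log2 difference of 0.032 with a 95% interval from -0.054 to 0.12 (edgeR adjusted p = 0.56). JUND had 410, 386 and 418 TPM in UXS1 KO and 368, 381 and 411 TPM in CTRL, a log2 difference of 0.068 with an interval from -0.017 to 0.15 (edgeR adjusted p = 0.19). For both genes the groups overlapped. JUNB turned to -0.014 without CTRL replicate 1 and was 0.065 without CTRL replicate 2, past the threshold in neither case. JUND passed the test without CTRL replicate 3 (log2 fold change 0.11, edgeR adjusted p = 0.0332), and without CTRL replicate 1 its difference was 0.019 (edgeR adjusted p = 0.714). JUNB (chromosome 19, 12791496 to 12793315, plus strand) shares 14.2% of its exonic length with HOOK2 on the opposite strand, and as no source says that strand was used in counting, its value is uncertain to that extent.

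ATF3, a stress-induced bZIP factor that can pair with JUN proteins, was low and spread out. It had 3.42, 2.84 and 2.35 TPM in the UXS1 KO libraries and 2.08, 2.61 and 1.77 TPM in the CTRL libraries. The CTRL library with the most ATF3 exceeded the UXS1 KO library with the least. The log2 difference was 0.41 (SE 0.179, edgeR adjusted p = 0.063), with an interval from 0.039 to 0.78. ATF3 passed the test without UXS1_KO replicate 3 (log2 fold change 0.55, adjusted p = 0.0191) and also, at a log2 fold change of 0.59 and an edgeR adjusted p of 0.0146, when CTRL replicate 2 was left out. In the other direction, its log2 difference was 0.27 without UXS1_KO replicate 1 (edgeR adjusted p = 0.301) and 0.29 without CTRL replicate 3 (edgeR adjusted p = 0.237). ATF3 (ENSG00000162772.17) lies on chromosome 1, 212565334 to 212620777, plus strand.

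**Figure D2:**
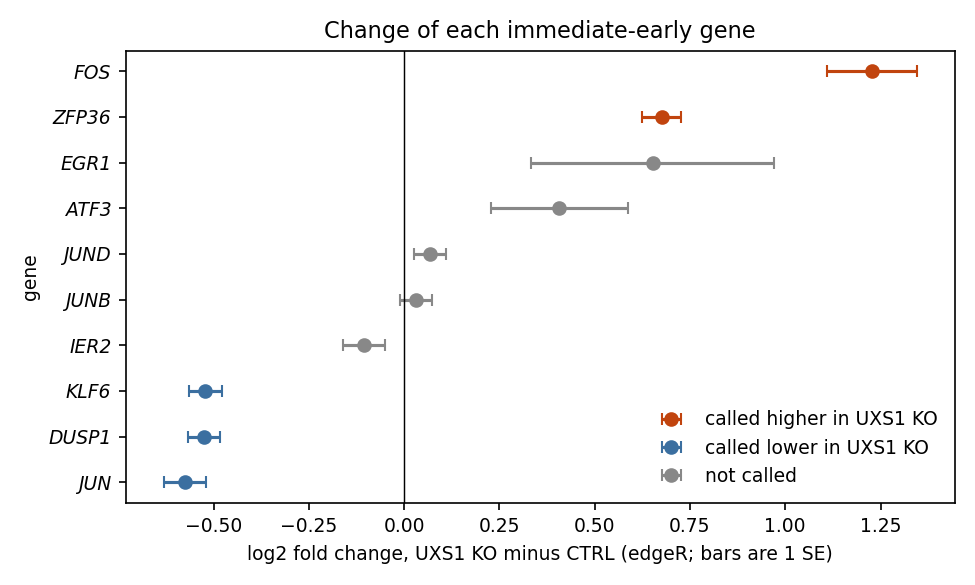
Log2 fold change of each immediate-early gene (UXS1 KO minus CTRL, edgeR), with bars of 1 SE, coloured by whether the adjusted p is under 0.05. FOS (1.23) and ZFP36 (0.68) lie to the right, JUN (-0.58), DUSP1 (-0.52) and KLF6 (-0.52) to the left, and the widest bars belong to EGR1 and ATF3, the genes with the fewest counts.

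Among the zinc-finger factors, KLF6 was lower in UXS1 KO and EGR1 was too low to be judged well. KLF6, a Krueppel-like factor of GC-rich promoters, had 27.0, 27.1 and 28.2 TPM in the UXS1 KO libraries and 40.5, 39.1 and 38.7 TPM in the CTRL libraries, with no overlap. KLF6 changed by -0.52 on the log2 scale (SE 0.0433, edgeR adjusted p = 1.3e-10), or 69.7% of CTRL. EGR1, a factor that binds GC-rich sites and is among the fastest responders to serum, had only 27, 14 and 19 counts in UXS1 KO and 11, 11 and 16 counts in CTRL, which is 1.41, 0.722 and 0.957 TPM against 0.567, 0.552 and 0.848 TPM. The lowest UXS1 KO library lay under the highest CTRL library. The log2 difference was 0.65 (SE 0.319, edgeR adjusted p = 0.095), and its interval, from -0.0033 to 1.31, takes in both no change and a rise as large as that of FOS. Without UXS1_KO replicate 1, the library with 27 counts, the difference was 0.36 (edgeR adjusted p = 0.456). KLF6 (ENSG00000067082.15) lies on chromosome 10, 3775996 to 3785281, minus strand, and EGR1 (ENSG00000120738.8) on chromosome 5, 138465490 to 138469315, plus strand.

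IER2, a small nuclear protein induced by growth factors, had 34.7, 35.9 and 34.7 TPM in the UXS1 KO libraries and 36.6, 37.5 and 39.5 TPM in the CTRL libraries. On TPM the groups lay side by side without overlap, but on the scaled CPM used by the test they overlapped. The log2 difference was -0.10 (SE 0.0555, edgeR adjusted p = 0.12), with an interval from -0.22 to 0.0095. Without CTRL replicate 1 it passed the test (log2 fold change -0.14, adjusted p = 0.0449). IER2 (chromosome 19, 13150415 to 13154908, plus strand) shares 30.8% of its exonic length with AC011446.2 on the opposite strand, so its value is uncertain.

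The feedback genes, which damp early signals at different steps, also split. ZFP36, the decay factor tristetraprolin, had 120, 116 and 107 TPM in the UXS1 KO libraries and 71.6, 73.7 and 69.6 TPM in the CTRL libraries, with no overlap. ZFP36 changed by 0.68 on the log2 scale (SE 0.0515, edgeR adjusted p = 2.5e-11), or 1.60-fold. DUSP1, the MAP kinase phosphatase, had 244, 243 and 265 TPM in the UXS1 KO libraries and 350.5, 349 and 383 TPM in the CTRL libraries, again with no overlap. DUSP1 changed by -0.52 on the log2 scale (SE 0.0415, edgeR adjusted p = 5.3e-11), or 69.5% of CTRL. ZFP36 (ENSG00000128016.7) lies on chromosome 19, 39406813 to 39409412, plus strand, and DUSP1 (ENSG00000120129.6) on chromosome 5, 172768090 to 172771195, minus strand. JUN, KLF6 and DUSP1 thus fell by nearly the same amount, between 0.52 and 0.58 on the log2 scale.

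**Figure D3:**
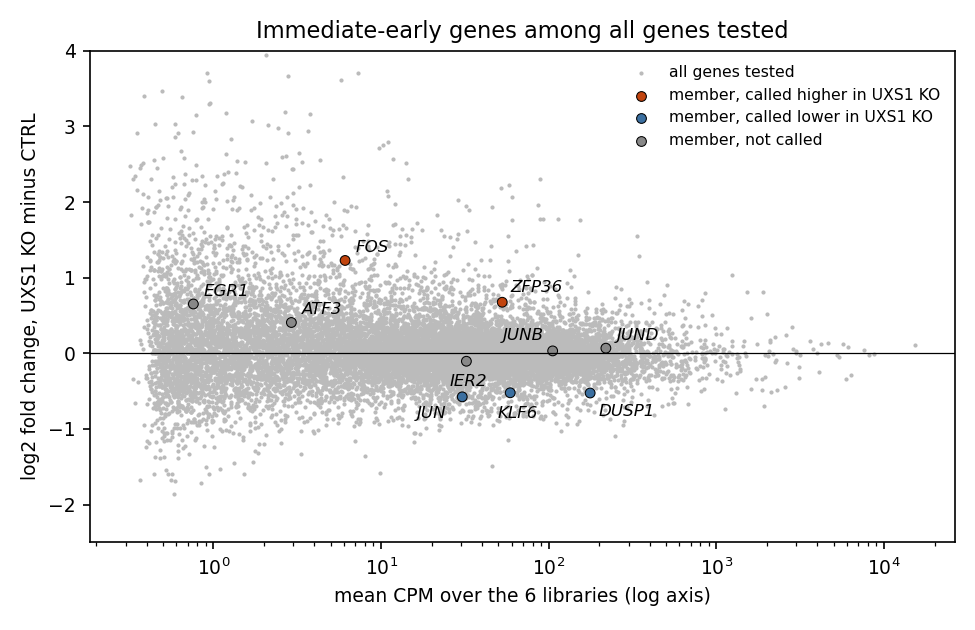
Log2 fold change (UXS1 KO minus CTRL) against mean CPM over the 6 libraries on a log axis, with 1 grey point per gene tested and the immediate-early genes marked and named; 5 genes lie outside the plotted range. FOS (log2 fold change 1.23) sits highest of the named genes, while JUNB (0.032) and JUND (0.068) lie close to the zero line.

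The promoters of the 5 genes that passed the test are shown because the text below compares the short motifs they hold. Each runs from 250 bases before to 50 bases after the RefSeq start (GRCh38.p14) and is written 5′ to 3′ on the strand of the gene. Capitals mark matches, on either strand, to TGACG (a CRE half-site), TGANNTCA, TGANTCA (AP-1), GCGTGGGCG and GCGGGGGCG (EGR), TATAAA and the CArG box of SRF. The windows are chr14:75278578-75278877 for FOS, chr19:39406597-39406896 for ZFP36, chr1:58783998-58784297 for JUN, chr10:3785160-3785459 for KLF6 and chr5:172771146-172771445 for DUSP1, the last 3 on the minus strand.
FOS: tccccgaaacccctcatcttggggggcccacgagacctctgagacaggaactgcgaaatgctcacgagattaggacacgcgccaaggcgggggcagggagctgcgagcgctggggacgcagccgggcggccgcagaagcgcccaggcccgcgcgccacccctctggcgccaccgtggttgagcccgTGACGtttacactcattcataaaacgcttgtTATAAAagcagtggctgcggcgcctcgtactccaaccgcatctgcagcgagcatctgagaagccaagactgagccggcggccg
ZFP36: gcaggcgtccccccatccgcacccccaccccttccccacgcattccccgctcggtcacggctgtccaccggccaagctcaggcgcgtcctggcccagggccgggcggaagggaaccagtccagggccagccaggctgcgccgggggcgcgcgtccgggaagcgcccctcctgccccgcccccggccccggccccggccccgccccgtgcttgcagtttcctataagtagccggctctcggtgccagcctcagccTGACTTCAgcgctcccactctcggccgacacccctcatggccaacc
JUN: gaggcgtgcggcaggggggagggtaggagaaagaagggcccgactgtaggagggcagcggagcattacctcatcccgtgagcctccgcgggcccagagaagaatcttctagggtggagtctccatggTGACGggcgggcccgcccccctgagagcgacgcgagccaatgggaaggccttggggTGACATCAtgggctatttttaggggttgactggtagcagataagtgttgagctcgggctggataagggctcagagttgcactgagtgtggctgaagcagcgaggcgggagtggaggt
KLF6: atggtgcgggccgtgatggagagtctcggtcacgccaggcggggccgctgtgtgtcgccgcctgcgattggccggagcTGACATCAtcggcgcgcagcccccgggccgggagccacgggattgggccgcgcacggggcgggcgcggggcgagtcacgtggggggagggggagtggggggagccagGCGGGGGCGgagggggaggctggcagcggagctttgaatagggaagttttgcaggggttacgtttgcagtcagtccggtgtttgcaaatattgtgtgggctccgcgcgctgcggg
DUSP1: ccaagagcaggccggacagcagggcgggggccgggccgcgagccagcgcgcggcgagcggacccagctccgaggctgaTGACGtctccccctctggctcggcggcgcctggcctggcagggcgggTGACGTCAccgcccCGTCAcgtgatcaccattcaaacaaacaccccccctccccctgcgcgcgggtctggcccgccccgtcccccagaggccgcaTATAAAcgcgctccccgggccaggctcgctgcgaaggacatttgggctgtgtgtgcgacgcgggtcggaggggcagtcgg

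All 10 genes had a window in the RefSeq table, ATF3 having 2. The 3 genes that fell each held an 8-letter TGANNTCA, spaced like the CRE (TGACGTCA) and not like TGANTCA (AP-1). JUN has TGACATCA beginning 67 bases before its start, and KLF6 has TGACATCA at 172 bases before. DUSP1 has the full CRE, TGACGTCA, at 125 bases before. JUND, which did not pass the test, also has the full CRE, at 200 bases before, as do 1.85% of all windows. Of the genes that rose, FOS held no TGANNTCA in this window and ZFP36 held TGACTTCA beginning at base 5 after the start. TGANNTCA also stood in windows of JUND and ATF3, which did not pass the test. In all, 6 of the 11 windows held it, against 11.5% of all 35116 windows. This motif was chosen after the sequences were seen, and a CRE is also 1 case of it. FOS held the CRE half-site TGACG 64 bases before its start, and that half-site occurred in 7 of the 11 windows and in 24.6% of all windows; every CRE holds it on both strands. TATAAA lay about 30 bases before the start of FOS, JUNB and DUSP1 and farther off in 1 ATF3 window (11.5% of all windows). The CArG box of SRF was found in EGR1 alone among these windows, where it occurred at 2 places (1.29% of all windows), GCGGGGGCG in KLF6 alone (5.07%), and TGANTCA and GCGTGGGCG in none (7.71% and 0.795% of all windows). A match is a run of letters, and a missing match says only that the letters are not in these 300 bases.

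Most of the 10 genes are short with few exons, a property that the choice of names did not use. In GENCODE 29, 4 of the 10 principal transcripts (JUN, JUNB, JUND and IER2) have 1 exon, against 2.18% of 13127 tested protein-coding genes, and the median number of exons was 2, against 9. The median gene span was 3498 bases, against 33280 over all these genes, but ATF3 spans 55444 bases. The median transcript length was 2096 bases, against 3213, with KLF6 (4656) and JUN (3540) above it, and KLF6 has a 3′ UTR of 3543 bases, against a median of 1100 over all these genes. ATTTA, the core of AU-rich elements, occurred 5 times in the 3′ UTR of FOS, 5 times in that of ZFP36, 4 times in that of DUSP1, 6 times in that of KLF6, 3 times in those of JUN and ATF3, 2 times in that of JUNB, 1 time in those of JUND and EGR1 and not at all in that of IER2. At least 3 copies were found in 6 of the 10 genes and in 42.0% of all these genes. Per 1000 bases of 3′ UTR the count was 6.2 in FOS, 7.01 in ZFP36, 5.95 in DUSP1, 1.69 in KLF6 and 2.33 in JUN, and the median was 2.39 over the 10 genes and 1.58 over all.

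The longer ZFP36-type site TTATTTATT, which contains ATTTA, was present in 3 of the 10 genes and in 8.43% of all these genes. The sites are shown because their carriers are 3 of the 5 called genes. The site was chosen after values or sequences were seen, and 48.2% of all genes tested were called in either direction. FOS (chr14:75282060-75282088, plus strand) and ZFP36 itself (chr19:39409196-39409224, plus strand) hold 1 site each and were higher in UXS1 KO. DUSP1 holds 2 sites (chr5:172768643-172768671 and chr5:172768375-172768403, minus strand) and was lower. Capitals mark the site, in DNA letters on the strand of the gene.
FOS: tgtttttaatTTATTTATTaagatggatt
ZFP36: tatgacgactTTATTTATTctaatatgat
DUSP1, nearer the stop codon: gggctggtccTTATTTATTtaacttcacc
DUSP1, farther from it: agaatataccTTATTTATTtttgtgtagg

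Within the AP-1 transcripts, the shares of FOS, FOSL1 and JUN did not overlap between the groups, and the other shares did. FOS made up 6.66% ± 0.735 of summed FOS-type TPM (FOS, FOSB, FOSL1 and FOSL2) in UXS1 KO, against 2.71% ± 0.294 in CTRL (mean ± SD, n = 3 each), with single libraries at 6.03%, 6.48% and 7.47% in UXS1 KO and 2.78%, 2.39% and 2.96% in CTRL. FOSL1 made up 27.9% ± 0.270 in UXS1 KO and 32.1% ± 0.178 in CTRL, also without overlap. FOSL2, the main FOS-type transcript, held 65.2% ± 0.422 in UXS1 KO and 65.0% ± 0.149 in CTRL, and FOSB under 0.5% in every library. Summed FOS-type TPM was 144, 143 and 136 in UXS1 KO and 155, 145 and 143 in CTRL, with overlap (exact two-sided permutation test, p = 0.2). FOS thus remained a minor FOS-type transcript in both groups.

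On the JUN side, JUN made up 4.13% ± 0.150 of summed JUN-type TPM in UXS1 KO, against 6.27% ± 0.517 in CTRL (mean ± SD, n = 3 each), with no overlap. JUNB held 32.0% ± 0.782 in UXS1 KO and 31.8% ± 0.741 in CTRL, and JUND 63.8% ± 0.925 in UXS1 KO and 61.9% ± 1.09 in CTRL, both with overlap. Summed JUN-type TPM was 637, 615 and 649 in UXS1 KO and 598, 624 and 651 in CTRL (exact two-sided permutation test, p = 0.7). For the shares of FOS, FOSL1 and JUN the exact test gave p = 0.1, the smallest value possible with these libraries. Computed from CPM, which ignores gene length, the differences in share were 2.30 points for FOS (3.95 from TPM), -1.63 for FOSL1 (-4.29 from TPM), -0.809 for FOSL2 (0.199 from TPM) and -3.41 for JUN (-2.14 from TPM), so the direction for FOSL2 turned. Shares of transcript are not shares of protein or of DNA-bound dimers, which were not measured.

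**Figure D4:**
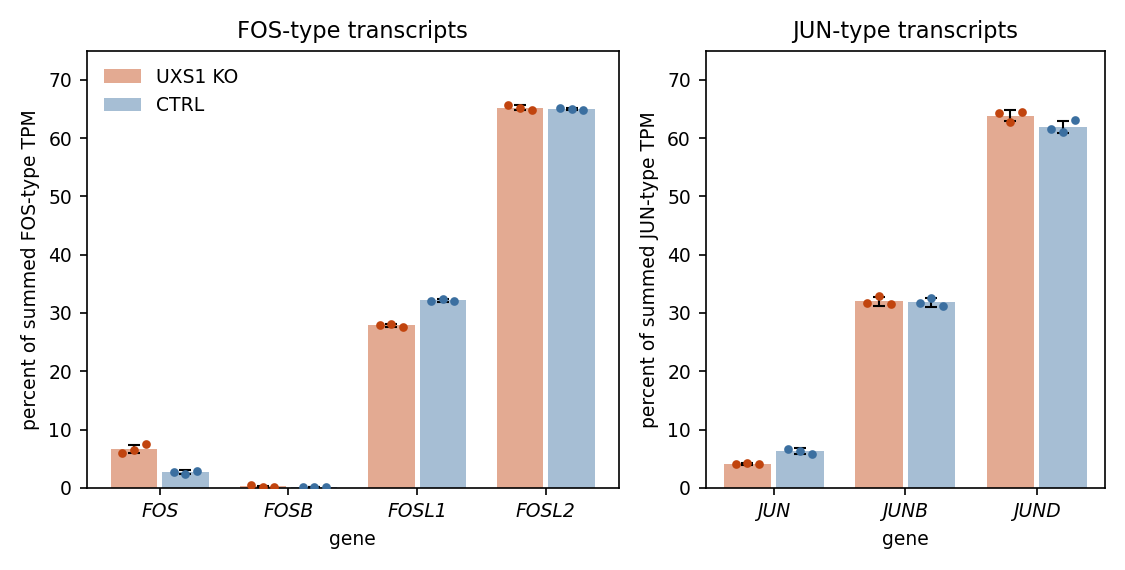
Percent of summed FOS-type TPM (left) and JUN-type TPM (right) held by each gene, with bars from 0 at the mean of 3 libraries (UXS1 KO left of CTRL), error bars of 1 SD and 1 point per library. FOS stands at 6.66% in UXS1 KO against 2.71% in CTRL and JUN at 4.13% against 6.27%, while FOSL2, JUNB and JUND differ by less than 2 points.

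Among 10 tested genes for other AP-1 subunits and bZIP partners 5 fell and 2 rose, with a median log2 fold change of -0.12. Of all genes tested 24.5% were called higher and 23.7% lower, so calls in both directions are by themselves no trait of a list. The small MAF protein gene MAFK had a log2 fold change of -0.45 (edgeR adjusted p = 4.7e-08), JDP2, which represses AP-1 sites, of -0.43 and BATF3, a JUN partner, of -0.46. BATF2, another JUN partner, rose by 1.31 (edgeR adjusted p = 3.5e-08), with 6.36 TPM in UXS1 KO and 2.57 TPM in CTRL. FOSB stayed under the filter, with 20, 11 and 9 counts in UXS1 KO and 5, 10 and 6 in CTRL. The number that rose was 1 without UXS1_KO replicate 1 and 1 without UXS1_KO replicate 2.

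The relatives of EGR1 and the NR4A receptors held no gene that was called higher. EGR2 and EGR3 had at most 2 counts in a library and EGR4 none, where a count of 0 allows up to 3 counts. Of 5 tested genes 2 fell: the orphan nuclear receptor genes NR4A3, with a log2 fold change of -0.87 (edgeR adjusted p = 2.4e-06; 1.86 TPM in UXS1 KO and 3.40 TPM in CTRL), and NR4A1, with -0.28 (adjusted p = 3.8e-05). NR4A2 at 0.13 and the EGR corepressor gene NAB1 at 0.061 did not pass. The median was -0.053, and over all genes tested 24.5% were called higher and 23.7% lower.

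Of 11 tested genes for other Krueppel-like factors 4 were called higher and 5 lower, against 24.5% and 23.7% over all genes. Their median log2 fold change was -0.018. KLF9, known for its response to steroid and thyroid hormones, rose by 1.16 (edgeR adjusted p = 5.4e-11), with 11.3 TPM in UXS1 KO and 5.10 TPM in CTRL. KLF5 rose by 0.18 and KLF3, a repressor, by 0.23, while KLF7 had a log2 fold change of -0.65 (edgeR adjusted p = 1.2e-10). The number that fell was 3 without UXS1_KO replicate 2 and 3 without CTRL replicate 1.

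Among 26 tested genes of the wider early response 11 rose and 10 fell, against 24.5% and 23.7% over all genes, with a median of 0.14. The antiproliferative p53 target BTG2 rose by 1.11 (edgeR adjusted p = 1.9e-14), with 53.0 TPM in UXS1 KO and 24.6 TPM in CTRL. The genes for ID2 and ID3, which block basic helix-loop-helix factors, had log2 fold changes of -0.90 (adjusted p = 3.1e-13) and -0.53 (adjusted p = 1.5e-11). CCN1, a secreted matrix protein whose gene answers to SRF and YAP, had -0.91 (adjusted p = 1.9e-12), with 33.9 TPM in UXS1 KO and 64.0 TPM in CTRL.

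Of 15 tested genes for other MAP kinase phosphatases and Sprouty-type inhibitors, 7 were called higher and 2 lower (median 0.090). Over all genes the shares were 24.5% higher and 23.7% lower. DUSP5, a nuclear phosphatase of ERK, fell like DUSP1, with a log2 fold change of -0.43 (edgeR adjusted p = 5.0e-10). DUSP6, a cytoplasmic phosphatase of ERK, rose by 0.60 (adjusted p = 1.1e-07), DUSP16, which acts on JNK, by 0.48 (adjusted p = 2.1e-09), and SPRED3, an inhibitor of RAS signalling, by 0.86 (adjusted p = 2.6e-08). The other gene that fell, DUSP9, was low (1.85 TPM in UXS1 KO and 2.87 TPM in CTRL), and the number that fell was 1 without UXS1_KO replicate 3.

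Beside ZFP36, its relative ZFP36L2 rose by 0.44 (edgeR adjusted p = 1.3e-09), with 99.1 TPM in UXS1 KO and 73.0 TPM in CTRL, while ZFP36L1 stood at 0.046 and did not pass. Of 10 tested genes for AU-rich element binding and deadenylation, ZFP36L2 was the only one that rose and 5 fell, with a median of -0.099. Over all genes 24.5% rose and 23.7% fell. HNRNPD, which also binds AU-rich elements, had a log2 fold change of -0.38 (adjusted p = 6.8e-09), the decay factor KHSRP -0.19 and the CCR4-NOT scaffold CNOT1 -0.21.

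Of 22 genes for kinases and factors upstream of immediate-early promoters 3 were called higher and 10 lower, against 24.5% and 23.7% over all genes. Their transcripts differed little: the median was -0.092, and no absolute log2 fold change exceeded 0.30. CREB1, the CRE-binding factor, had -0.30 (edgeR adjusted p = 4.6e-05), the MAP kinase kinase MAP2K2 -0.24, and the SRF partner MRTFA -0.20, while CREM, a CREB relative, rose by 0.27. SRF itself was at -0.12 (adjusted p = 0.045). The number that rose was 1 without UXS1_KO replicate 3 or without CTRL replicate 2, and the number that fell was 6 without UXS1_KO replicate 1. Kinase activity was not measured.

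Of 13 tested genes with known AP-1 sites 5 were called higher and 6 lower (median -0.19), against 24.5% and 23.7% over all genes. HMOX1, heme oxygenase, had a log2 fold change of -0.82 (edgeR adjusted p = 2.6e-16), with 465 TPM in UXS1 KO and 824 TPM in CTRL. TIMP1, an inhibitor of metalloproteinases, rose by 0.47 (adjusted p = 9.9e-11) and the hyaluronan receptor CD44 by 0.36 (adjusted p = 2.4e-09). MMP1, MMP3, MMP9, MMP10 and IL6 stayed under the filter.

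Of 10 tested heat shock genes 7 were called lower and none higher (median -0.24), where 23.7% of all genes tested were lower and 24.5% higher. HSP90AA1 had a log2 fold change of -0.34 (edgeR adjusted p = 4.9e-09), HSPH1 of -0.33, and HSPA8 and HSPD1 of -0.31 each. Those not called were HSPA1B (-0.019), HSPB1 (-0.063) and DNAJB1 (-0.086). The 10 genes summed to 5092 to 5251 TPM in UXS1 KO and 5998 to 6129 TPM in CTRL; their part in the values of the immediate-early genes was not tested.

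**Figure D5:**
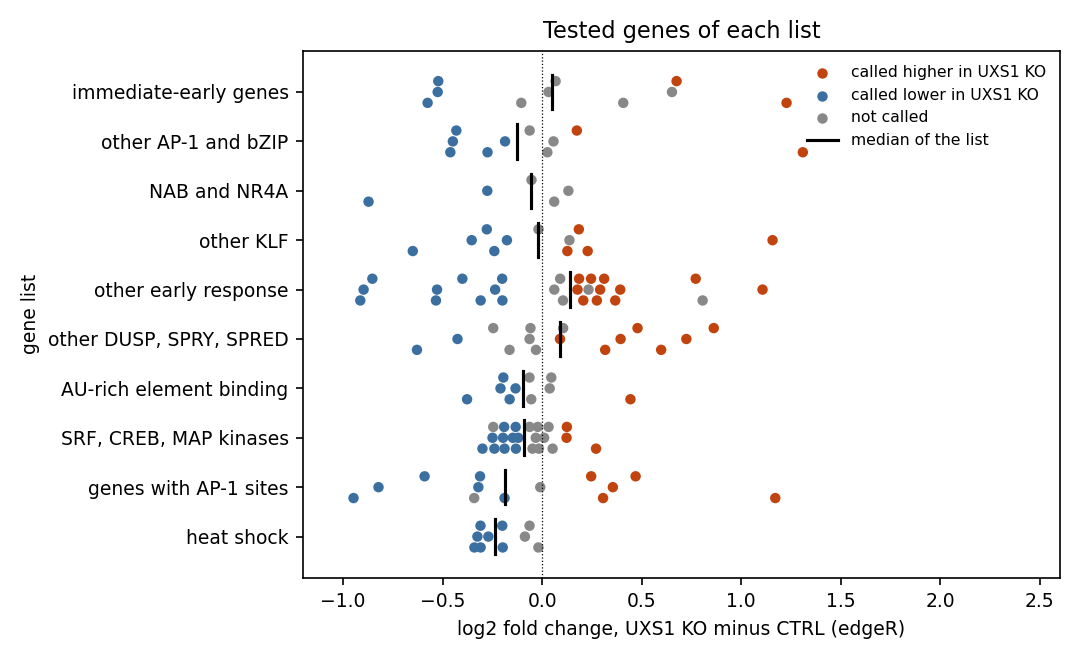
Log2 fold change (UXS1 KO minus CTRL) of the tested genes of each list, with 1 point per gene coloured by its call and a black line at the median of the list; vertical scatter within a list has no meaning. The NAB and NR4A list and the heat shock list hold no gene called higher, and every other list holds genes called in both directions.

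By the likeness of their profiles over the 6 libraries (root mean square difference of log2 CPM, each gene centred on its own mean, over genes averaging 5 CPM or more), the closest to FOS were SDK2 (0.0754), the long non-coding AL158206.1 (0.0868) and KLF9 (0.0911). SDK2 had 12.8 CPM in UXS1 KO and 5.41 CPM in CTRL. The closest to ZFP36 were SMOC1 (0.0253), PBXIP1 (0.0352) and VWA1 (0.0362), all of which differed by 0.67 to 0.68 on the log2 scale. A like difference between the groups is largely built into this measure and is no separate result. For EGR1, which had 11 to 27 counts per library, the closest were CA5B (0.234), SOX9 (0.240) and AKAP6 (0.249), at several times the distance. These 3 immediate-early genes are those with the largest absolute log2 fold changes.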

How the data were processed

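RNA sequencing libraries of 6 A549 cultures (3 UXS1 KO, 3 CTRL) were grouped by their titles. Per the submitters' processing notes, STAR, featureCounts, DESeq2 and hg38 were used; no version, annotation release or strand setting is given in the sources used here. Per the file headers, the authors deposited whole-number counts per gene and TPM values, which sum to 1000000 per library.

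Genes passing edgeR's filterByExpr (minimum count 10; 15757 of 28317) were scaled by TMM, and edgeR 4.0.16 under R 4.3.3 fitted its quasi-likelihood model with group as the only term. Tests were two-sided and p-values adjusted by Benjamini-Hochberg over these genes, with 0.05 as threshold. Log2 fold changes run UXS1 KO minus CTRL. SE is the absolute log2 fold change over the root of F; intervals are 95%. The pipeline was also run on simulated counts in which all genes shared 1 dispersion (0.0011). That setting is simpler than these data, so the run does not test the calls made here. Levels and shares are from TPM, which is per length; the CPM values carry the TMM factors. Chi-square over degrees of freedom was 1.60 to 3.39 between libraries of 1 group, above sampling noise, and 26.2 to 28.8 across groups. No library thus looks like a resampling of another, but this cannot show whether each had its own infection.

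The alternatives comprised other scalings and filters, DESeq2 1.42.0, voom and trend fits in limma 3.58.1 (trend on log2(TPM + 1) or log2(TPM + 0.1)), the replicate number as a block, and leaving out each library. GENCODE 29 (GRCh38, which is hg38) gave positions, exons and UTRs (principal transcript, matched by gene identifier without its version), and promoters are from RefSeq.

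The genes and lists were chosen with earlier results of these data known. Named were all 10 genes, UXS1, up to 4 genes per list with the smallest adjusted p, and the 3 profiles closest to each of the 3 genes with the largest change; other genes, the motifs TGANNTCA and TGACG and the UTR motifs were chosen after their values or sequences were seen. BATF, SPRY3 and PTPRC were not analysed here. For the genes with AP-1 sites, 1 gene that this rule names is not reported here.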

Additional observations from a re-analysis of the deposited data

How the results depend on the processing

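Under all 17 alternatives FOS and ZFP36 stayed higher and JUN, KLF6 and DUSP1 lower at an adjusted p under 0.05. Their log2 fold changes ran from 1.05 to 1.28 for FOS, 0.64 to 0.73 for ZFP36, -0.61 to -0.55 for JUN, -0.54 to -0.50 for KLF6 and -0.56 to -0.48 for DUSP1. With a library left out JUNB ran from -0.014 (reversed, without CTRL replicate 1) to 0.065 and the endothelial marker CDH5 from -0.49 to 0.030 (reversed, without CTRL replicate 3), neither past the threshold there. ATF3 passed with upper-quartile scaling (adjusted p = 0.0490), without a filter (0.0431) and with the replicate block (0.0377), as well as in the cases with a library left out given above. With shares of CPM in place of TPM, which ignore gene length, the differences were -3.41 points for JUN, 2.30 for FOS, -1.63 for FOSL1 and -0.809 for FOSL2. Deviations of same-numbered libraries had correlations of 0.0101, 0.106 and 0.143, and those of differently numbered libraries ran from -0.153 to 0.055. For UXS1_KO replicates 2 and 3 the same-numbered CTRL library gave the highest value, so weak pairing by number remains possible. With the replicate block 4002 genes were higher, against 3863 without it, and 3896 lower, against 3727. No called gene of the set lost its call with the block. Depth limits EGR1 and ATF3, with 60 and 215 counts over the UXS1 KO libraries and 38 and 162 over the CTRL libraries.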
